A study of Mus musculus with 10 samples.

Results

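The libraries described here followed a mouse leukaemia between 5 and 14 days after its mutant DNA methyltransferase had been switched off. They were all 6 libraries labelled R882H off, 2 at day 5 and 4 at day 14, chosen by label alone from the 10 libraries of the series. The disease, named DIN, arose from fetal liver cells that had received 3 MSCV retroviral vectors and were grafted into sublethally irradiated Ptprca recipients. The first vector carried DNMT3A R882H with dsRed behind a tetracycline-regulated element, the second IDH2 R140Q with GFP, and the third NRAS G12D with the TTA transactivator on which the first vector depends. Frozen cells of moribund mice were grafted into new Ptprca recipients, which received chow and water with doxycycline (off) or without it (on) for 5 or 14 days. The IDH2 and NRAS alleles were present in every group and were not regulated. cKit+/CD11b- cells were then sorted from bone marrow and spleen. The organ behind a library and the mouse behind it are not in the labels, so every p-value measures only the spread between these libraries. Doxycycline alone, in cells lacking the regulated vector, was not among the groups, and the same days also separate the mice by time since grafting, so time without the allele, time on doxycycline and time in the host cannot be told apart within the off libraries. The 4 libraries that kept R882H on, 2 at day 5 and 2 at day 14, served to test whether a change between the days differed between off and on.

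Red cells form from progenitors that carry Kit. The transcription factors Gata1, Klf1 and Tal1 drive this lineage, and the erythropoietin receptor Epor keeps its early cells alive. As these cells mature they make heme in a chain of enzymes that begins and ends in mitochondria, take up iron, and lay down globin and a membrane skeleton, while genes of stem cells and of other blood lineages are turned down. The mutant methyltransferase is known from human acute myeloid leukaemia.

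Total counts ran from 9864398 to 14340624 in the 6 off libraries, so that 3 counts, the limit that a count of 0 allows, correspond to between 0.209 and 0.304 CPM, the counts of a gene scaled to a library's size. This limit covers counting error only. Values below are TMM-scaled CPM given in replicate order. Levels are not compared between genes. In log2 CPM over all tested genes, the 4 day 14 libraries correlated at 0.977 to 0.983 with one another (Pearson's r across genes, which are not independent replicates). The day 5 libraries correlated at 0.973 with each other. Day 5 replicate 2 stood nearer to day 14 (0.948 to 0.956) than replicate 1 did (0.930 to 0.938). Of the 1601 genes called higher at day 14, replicate 2 was the nearer library in 69.9%, against 59.5% of all tested genes. Of the 1105 genes called lower it was the nearer in 58.6%, close to the share of all tested genes. These 2 libraries are all that day 5 off holds, and calls that are lost without 1 of them are given as such.

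The comparison of day 14 with day 5 asks what went on changing after the first days without R882H. Of 15916 tested genes edgeR called 2706, or 17.0%, at an adjusted p of 0.05. Of these 1601 (10.1%) were higher and 1105 (6.94%) were lower at day 14, and 1282 had changed at least 2-fold. Between the on libraries 370 genes (2.32%) were called over the same days, 154 (0.968%) higher and 216 (1.36%) lower. Genes with an unadjusted edgeR p below 0.05 numbered 5141 off and 3254 on. The on comparison had fewer libraries at day 14, so the off and on counts of calls were not reached at equal power. Without day 5 off replicate 1 the off count fell to 601, without replicate 2 to 1283, and without day 14 off replicate 1 to 1566 and replicate 2 to 1717. A total of 453 genes kept their call when each of the 6 libraries was left out in turn. With 2 libraries at day 5, leaving one out means that the other is assumed to vary as the other groups do.

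**Figure D1:**
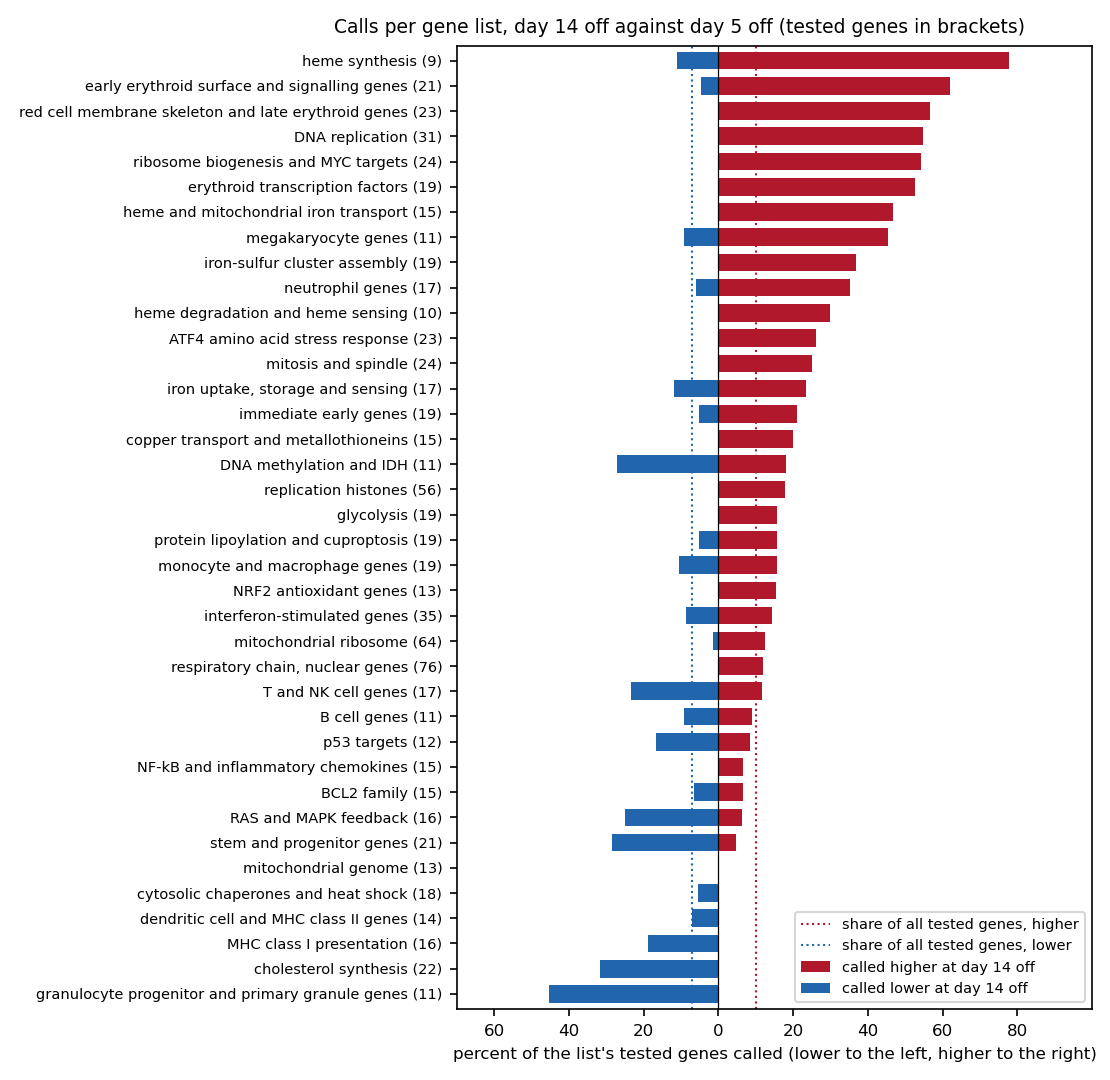
Percent of each list's tested genes that edgeR called higher (red, right) or lower (blue, left) at day 14 off than at day 5 off, for the lists with at least 9 tested genes. Dotted lines mark the shares of all tested genes, 10.1% higher and 6.94% lower. Heme synthesis, the erythroid lists, DNA replication and ribosome biogenesis reach furthest to the right, and granulocyte progenitor, cholesterol synthesis and stem and progenitor genes furthest to the left.

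Of 19 tested transcription factors of the red cell lineage, 10 were called higher at day 14 and 0 lower. Tal1 (ENSMUSG00000028717, chromosome 4, 115056426 to 115071755, mm10), a helix-loop-helix factor needed for blood formation and later for red cell precursors, stood at 2.58 and 3.57 CPM at day 5 and at 31.2, 31.4, 29.6 and 50.3 CPM at day 14. All 4 day 14 libraries lay far above both day 5 libraries, and replicate 4 was the highest. Over all tested genes 24.2% had every day 14 library above both day 5 libraries, and 21.5% had every one below. The log2 change was 3.52 ± 0.43 (SE, n = 2 and 4, edgeR adjusted p = 0.00152). Gata1 (ENSMUSG00000031162, chromosome X, 7959260 to 7978071), the master factor of red cell and platelet precursors, went from 5.16 and 21.1 CPM to 72.8, 76.3, 58.2 and 69.0 CPM. Klf1, which switches on adult globin, went from 5.36 and 23.1 CPM to 65.7, 75.0, 49.5 and 70.5 CPM. In both genes the groups did not overlap, and day 5 replicate 2 stood about midway on a log scale. Gata1 changed by 2.38 ± 0.49 (edgeR adjusted p = 0.0109) and Klf1 by 2.18 ± 0.49 (0.0150). Without day 5 replicate 2 the changes came to 3.74 and 3.60. Both genes lie outside the rule by which genes were picked for description and were added after their values had been seen, as was Sox6.

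The 19 factors had a median log2 change of 0.70 beside -0.01 over all tested genes. Zfpm1, the cofactor of Gata1, rose by 2.167 ± 0.36, Gfi1b, a repressor needed in red cell and platelet precursors, by 1.74 ± 0.34, and Zbtb7a, a repressor of embryonic globin, by 0.70 ± 0.12. Sox6, a partner in globin switching, was near the detection limit at day 5 (0.206 and 0.243 CPM) and at 1.22 to 2.96 CPM at day 14. Lmo2 and Gata2, which act already in stem and progenitor cells, did not pass the test (changes of 0.37 ± 0.19 and 0.58 ± 0.28, edgeR adjusted p = 0.198 and 0.19). Without day 5 replicate 1 the count was 4 of 19, and the calls of Zfpm1 (adjusted p = 0.0501), Gfi1b (0.0958) and Sox6 (0.0869) were lost. Sox6 was also lost without day 5 replicate 2 (0.0627).

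The RefSeq promoter windows of Tal1, Ermap and Epor are shown because many red cell genes carry sites for Gata1 and Klf1 near their start. They are the 3 erythroid genes of smallest p among those called higher that had a window. The rule for this choice left out the genes of 1 chromosome. Each is the 250 bases before the start in GRCm38.p6, read on the gene's own strand, with capitals marking matches on either strand to the GATA letters AGATAA or the variant TGATAA, to AGATAG or the variant TGATAG, and to the letters CCNCNCCC of a Klf1-type box. Overlapping matches run together.
Tal1, chr4:115056176-115056425, plus strand: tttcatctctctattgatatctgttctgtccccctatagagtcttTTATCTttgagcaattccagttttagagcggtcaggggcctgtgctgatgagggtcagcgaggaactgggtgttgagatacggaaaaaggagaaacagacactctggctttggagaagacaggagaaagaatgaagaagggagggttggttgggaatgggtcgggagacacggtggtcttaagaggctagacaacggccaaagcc
Ermap, chr4:119189996-119190245, minus strand: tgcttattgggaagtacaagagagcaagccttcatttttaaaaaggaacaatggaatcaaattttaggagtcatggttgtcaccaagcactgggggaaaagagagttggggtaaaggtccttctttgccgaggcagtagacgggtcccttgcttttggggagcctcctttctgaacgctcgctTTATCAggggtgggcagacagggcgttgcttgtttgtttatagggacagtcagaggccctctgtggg
Epor, chr9:21963577-21963826, minus strand: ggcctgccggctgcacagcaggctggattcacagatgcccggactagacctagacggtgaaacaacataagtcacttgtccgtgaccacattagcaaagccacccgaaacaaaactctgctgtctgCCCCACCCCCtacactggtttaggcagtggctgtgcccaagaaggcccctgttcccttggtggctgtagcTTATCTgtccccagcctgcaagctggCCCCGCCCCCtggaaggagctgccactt
Each window held 1 GATA match, which began 205 bases before the start in Tal1, 67 in Ermap and 54 in Epor. The Epor window also held 4 overlapping matches to CCNCNCCC. A GATA match was present in 26.5% of 32851 windows of this length and a CCNCNCCC match in 45.9%. Of the 36 erythroid-list genes called higher, 29 had a window, and 14 of these (48.3%) held a GATA match and 19 (65.5%) a CCNCNCCC match. These are letter matches and show no binding.

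Of 21 tested genes for surface and signalling proteins of early red cell precursors, 13 were called higher at the RNA level. Car1 (ENSMUSG00000027556, chromosome 3, 14766216 to 14808368), the carbonic anhydrase of the earliest red cell precursors, stood at 89.4 and 314 CPM at day 5 and at 1192, 1259, 1138 and 1216 CPM at day 14. The 4 day 14 libraries were close together while the 2 day 5 libraries were far apart. Car1 changed by 2.57 ± 0.51 (edgeR adjusted p = 0.00964), and was described outside the rule, after its values had been seen. Ermap, a red cell adhesion protein, went from 6.91 and 25.9 CPM to 143, 132, 140 and 159 CPM, a change of 3.11 ± 0.42 (edgeR adjusted p = 0.00213). Epor went from 2.27 and 7.14 CPM to 30.3, 27.5, 20.9 and 24.4 CPM, a change of 2.42 ± 0.37 (edgeR adjusted p = 0.00294). Samd14, which modulates Kit signalling in red cell precursors, rose by 3.07 ± 0.46. None of the calls of Car1, Ermap, Epor and Samd14 was lost when a library was left out, whereas the replicate block ended that of Car1 (adjusted p = 0.0976). Only 1 of the 21 was called lower, Itga4, an integrin subunit, at -0.73. The median was 1.96, and 3.13 without day 5 replicate 2, and 11 of the 14 calls held without each library in turn. The other 7, among them the transferrin receptor Tfrc and the glucose transporter Slc2a1, did not pass the test.

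**Figure D2:**
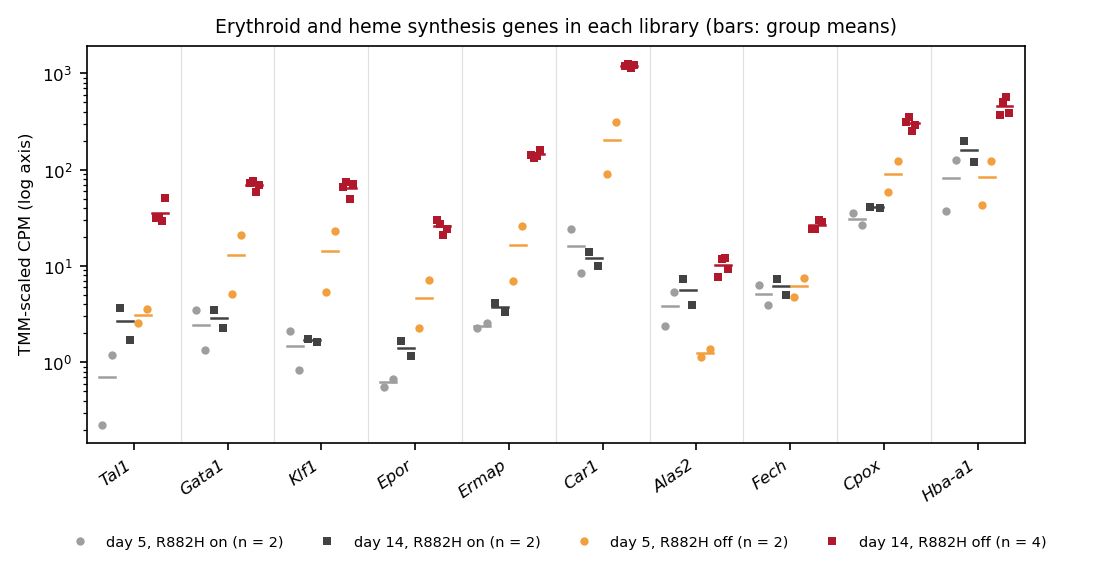
TMM-scaled CPM (log axis) of 10 erythroid and heme synthesis genes in every library, with day 5 on in light grey, day 14 on in dark grey, day 5 off in orange and day 14 off in red. Short bars are group means. In all 10 genes the 4 day 14 off libraries lie above both day 5 off libraries. In Tal1 and Alas2 the 2 day 5 off libraries are close together, while in Gata1, Klf1 and Car1 they lie several fold apart.

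Late red cell genes rose less evenly. Sptb, a spectrin of the membrane skeleton, went from 0.412 and 1.22 CPM to 7.70, 7.83, 9.22 and 8.09 CPM, a change of 3.27 ± 0.54 (edgeR adjusted p = 0.00376), and Slc4a1, the band 3 anion exchanger, rose by 2.72 ± 0.45. Epb41, the skeleton's protein 4.1, rose by 1.005 ± 0.17 and Fbxo7, a ubiquitin ligase component, by 0.80 ± 0.13. Of 23 tested genes 13 were called higher and 0 lower, with a median of 1.005. The count was 2 without day 5 replicate 1 and the median 0.72, and the calls of Slc4a1 (edgeR adjusted p = 0.0584), Epb41 (0.0697) and Fbxo7 (0.0701) were lost, while Sptb kept its own. Of 6 tested globins 3 were called higher and 0 lower (median 1.77). In 5 of the 6 every day 14 library stood above both day 5 libraries, as in 24.2% of all tested genes. The alpha globin genes Hba-a1 (42.9 and 124 CPM at day 5, 371, 498, 564 and 385 at day 14) and Hba-a2 rose by 2.44 ± 0.55 and 2.28 ± 0.48. They are near-identical copies, so their split of reads is uncertain. Hbb-y, an embryonic globin, rose by 2.89 ± 0.61, whereas the adult beta globin Hbb-bt was at 580 and 1096 CPM at day 5 and at 763, 1140, 1055 and 538 CPM at day 14, groups that overlapped (change 0.06 ± 0.46, edgeR adjusted p = 0.945). All 3 globin calls were lost without day 5 replicate 1 (edgeR adjusted p = 0.132, 0.113 and 0.120), and the alpha globin calls with a replicate block (0.0617 and 0.0607).

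Heme synthesis was the list with the highest share of calls, 7 of 9 genes higher and 1 lower, with a median of 1.35. Cpox (ENSMUSG00000022742, chromosome 16, 58670292 to 58717636), which makes protoporphyrinogen, went from 58.7 and 122 CPM to 312, 351, 250 and 292 CPM, a change of 1.73 ± 0.27 (edgeR adjusted p = 0.00329). Fech, the ferrochelatase that inserts iron in the last step, went from 4.74 and 7.55 CPM to 24.5, 24.1, 29.8 and 28.5 CPM, a change of 2.11 ± 0.28 (edgeR adjusted p = 0.00159). Alas2, the first enzyme of the chain in red cells, went from 1.13 and 1.38 CPM to 7.70, 11.9, 12.2 and 9.32 CPM, a change of 3.02 ± 0.43 (edgeR adjusted p = 0.00215). In these 3 genes every day 14 library stood above both day 5 libraries, and no call was lost when a library was left out. Alas1, the form of the first enzyme used by most other cells, was 15.6 and 10.2 CPM at day 5 and 6.31 to 7.96 CPM at day 14, a change of -0.90 ± 0.28 (edgeR adjusted p = 0.0478), the opposite direction to Alas2.

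The second enzyme, Alad, rose by 1.46 ± 0.32, Urod by 0.93 ± 0.18 and Ppox, the step before Fech, by 0.45 ± 0.13, while Uros was at 0.36 ± 0.41 (edgeR adjusted p = 0.597). Without day 5 replicate 1 the list had 3 genes called higher and 0 lower, and its median was 0.84, beside 2.13 without replicate 2. The calls of Alad (edgeR adjusted p = 0.0978) and Urod (0.111) were among those lost, and the change of Alad was 0.97 without replicate 1 and 2.21 without replicate 2. Ppox and Alas1 were called only with all 6 libraries. Leaving out any one of them raised the edgeR adjusted p to between 0.0611 and 0.184 for Ppox and between 0.0566 and 0.386 for Alas1, whose change was -0.59 without day 5 replicate 1. A replicate block also ended the call of Ppox (0.0616). The difference between the off and the on change was called for Alas2 (2.51), Fech (1.83) and Urod (1.35), with edgeR adjusted p = 0.0494, 0.0432 and 0.0339, and against 3.06% of all tested genes. Each of these 3 differences kept its call in no more than 2 of the 10 fits that leave out a library.

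Of 15 tested genes of heme and mitochondrial iron transport 7 were called higher and 0 lower (median 0.62). Abcb10, a mitochondrial transporter that binds the iron importer of that organelle, rose by 1.77 ± 0.30, Abcb6, a porphyrin transporter, by 1.96 ± 0.22, Tmem14c, needed to bring porphyrin into mitochondria, by 0.76 ± 0.13, and Fam210b by 1.29 ± 0.28. The transport list had 2 calls without day 5 replicate 1, where Tmem14c (edgeR adjusted p = 0.0966) and Fam210b (0.155) dropped out. Among 17 iron genes 4 rose and 2 fell, where 10.1% and 6.94% of all tested genes did. Steap3, the ferrireductase of red cell endosomes, went from 3.40 and 5.19 CPM to 17.8, 19.0, 16.6 and 22.5 CPM (2.13 ± 0.24), Slc11a2, which carries iron out of endosomes, from 20.01 and 30.8 CPM to 62.0, 67.2, 62.0 and 62.7 CPM (1.32 ± 0.19), and Tfr2, the second transferrin receptor, from 2.47 and 6.49 CPM to 25.5, 25.6, 22.8 and 21.6 CPM (2.39 ± 0.42). All 3 kept their calls without each library. Ireb2, an iron-sensing RNA-binding protein, fell by 0.58 on the log2 scale, a call lost without day 5 replicate 1 (edgeR adjusted p = 0.116) or 2 (0.0805). The iron list had 3 calls without day 5 replicate 1. The change of Steap3 exceeded that between the on libraries by 2.56 (edgeR adjusted p = 0.0136), a difference called without each of the 10 libraries in turn.

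Iron-sulfur cluster assembly, which uses mitochondrial iron, had 7 of 19 genes higher and 0 lower (median 0.36, and 0.60 without day 5 replicate 2). Iba57, a late assembly factor, rose by 1.99 ± 0.29, and Glrx5, a carrier of clusters that is needed for heme synthesis in red cells, by 1.24 ± 0.28. Lyrm4, which supports the sulfur donor, rose by 0.95 ± 0.23 and Ciapin1, a cytosolic assembly protein, by 0.71 ± 0.17. The count was 1 without day 5 replicate 1, and Glrx5 (edgeR adjusted p = 0.156), Lyrm4 (0.221) and Ciapin1 (0.235) were lost. It was 3 without day 14 replicate 1, 2 or 4, with Ciapin1 lost without replicate 1 (0.0589) or 2 (0.0574) and Lyrm4 without replicate 4 (0.0510).

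The series title asks about copper-dependent cell death, for which copper genes and enzymes carrying lipoic acid were counted. Mt2 (ENSMUSG00000031762, chromosome 8, 94172664 to 94173568), a metallothionein that binds zinc and copper, was at 194 and 382 CPM at day 5 and at 1130, 1282, 1302 and 952 CPM at day 14. The groups lay well apart, with a change of 2.02 ± 0.39 (edgeR adjusted p = 0.00834), and in the on libraries Mt2 was at 43.6 and 114 CPM at day 5 and at 24.0 and 19.96 CPM at day 14. Its off change exceeded its on change by 3.87 (edgeR adjusted p = 0.0136), a difference called in 9 of the 10 fits that leave out a library. Mt1 rose by 1.55 ± 0.44 and Ccs, the copper chaperone of superoxide dismutase, by 0.69 ± 0.21. Of 15 tested copper genes 3 were called higher and 0 lower, where 10.1% of all tested genes were called higher, with a median of 0.19, which was 0.03 without day 5 replicate 1 and 0.08 without day 14 replicate 3. No copper call was left without day 5 replicate 1, where the edgeR adjusted p was 0.0948 for Mt2, 0.238 for Mt1 and 0.387 for Ccs, whose change was then 0.45. Mt1 was also lost without each of the other 5 libraries (0.0543 to 0.139) and with a replicate block (0.131), and Ccs without day 5 replicate 2 (0.0509) and day 14 replicates 1 (0.109), 2 (0.113) and 3 (0.0764). The list had 1 call without day 14 replicate 1, 2 or 3, or day 5 replicate 2.

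Of 19 tested genes of protein lipoylation and copper-dependent death, 3 were called higher and 1 lower, where 10.1% and 6.94% of all tested genes were. Their median was 0.35, and 0.22 without day 5 replicate 1. Dlst, a subunit of the oxoglutarate dehydrogenase complex that carries lipoic acid, rose from 54.9 and 62.5 CPM to 98.8, 110, 106 and 103 CPM (0.83 ± 0.12, edgeR adjusted p = 0.00244) and kept its call without each library. Ogdh, the catalytic subunit of that complex, rose by 0.62 ± 0.17, and Lypla1 changed by -0.58 ± 0.16. Ogdh and Lypla1 lost their calls without day 5 replicate 1 (edgeR adjusted p = 0.174 and 0.164), without day 5 replicate 2 (0.153 and 0.110), and without day 14 replicates 1 (0.0838 and 0.0649) and 2 (0.0786 and 0.0643), Ogdh also without day 14 replicate 3 (0.0690) and Lypla1 without replicate 4 (0.0503). The count of calls was 1 without day 5 replicate 1, and 2 without day 5 replicate 2 or day 14 replicate 1 or 2.

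Of 31 tested genes of DNA replication 17 were called higher off and 0 lower (median 0.61). Ccne1 (ENSMUSG00000002068, chromosome 7, 38097984 to 38107534), cyclin E1, which starts DNA synthesis, went from 9.49 and 13.1 CPM to 36.7, 37.2, 31.7 and 31.4 CPM, a change of 1.59 ± 0.18 (edgeR adjusted p = 0.00120). Cdc6, a loader of the replicative helicase, went from 41.2 and 57.8 CPM to 108, 111, 96.0 and 93.9 CPM, a change of 1.04 ± 0.16 (edgeR adjusted p = 0.00272). In both genes the groups were apart, and in the on libraries the levels were 5.62, 6.38, 4.56 and 4.52 CPM for Ccne1 and 29.7, 33.3, 22.2 and 21.8 CPM for Cdc6 (day 5 first). Mcm2, a helicase subunit, rose by 1.31 ± 0.20 and Pold1, a catalytic polymerase subunit, by 1.54 ± 0.18. In the on libraries 0 of the 31 were called higher and 2 lower (median -0.41). For 13 of the 31 edgeR called the off change higher than the on change, against 1.65% of all tested genes. Among these, the differences of Mcm2 (1.51) and Pold1 (1.25) lost their call in some of the 10 fits that leave out a library. The difference was 2.0002 in Ccne1 and 1.56 in Cdc6, and both of these differences were called without each of the 10 libraries. Without day 5 off replicate 1 the off count was 4, and without replicate 2 it was 11.

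Mitosis genes had 6 of 24 called higher and 0 lower (median 0.47), and 14 higher when the off groups were fitted alone. Plk1, a kinase of mitotic entry, went from 66.8 and 78.0 CPM to 231, 258, 209 and 214 CPM (1.65 ± 0.25), Cdc20, an activator of mitotic exit, rose by 1.51 ± 0.22 and Bub1b, of the spindle checkpoint, by 1.05 ± 0.14. These 3 calls held without each library, and the list's count was 3 without day 5 off replicate 1 or day 14 off replicates 1 and 2. In the on libraries 0 of the 24 were called higher and 2 lower (median -0.45). For 7 of the 24 genes edgeR called the off change higher than the on change, against 1.65% of all tested genes. Plk1 (1.79), Cdc20 (1.73) and Bub1b (1.07) were among these, but each difference lost its call in some of the 10 fits that leave out a library. The differences were then 1.11 to 2.20, 1.25 to 2.03 and 0.96 to 1.17. Among 56 tested replication histones, whose messages normally lack the poly(A) tail that this kit primes on, 10 rose and 0 fell off (median 0.44), and 0 rose and 12 fell on (median -0.95). Hist1h2aj (ENSMUSG00000080076, chromosome 13, 21721457 to 21721808), which the annotation lists as an unprocessed pseudogene, went from 11.1 and 11.1 CPM to 27.3, 24.5, 27.9 and 24.8 CPM off, and from 18.1 and 17.8 CPM to 5.60 and 6.05 CPM on. The 2 changes were 1.23 ± 0.15 and -1.62, and they differed by 2.85 (edgeR adjusted p = 9.21e-04). Hist1h2ab, Hist1h2ae, Hist1h2ag, Hist1h2ai and Hist1h2ao had differences of 2.01 to 2.25, and all 6 histone differences were called without each of the 10 libraries in turn. Histone H2A genes are near-identical copies, so that reads may have been split among them.

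**Figure D3:**
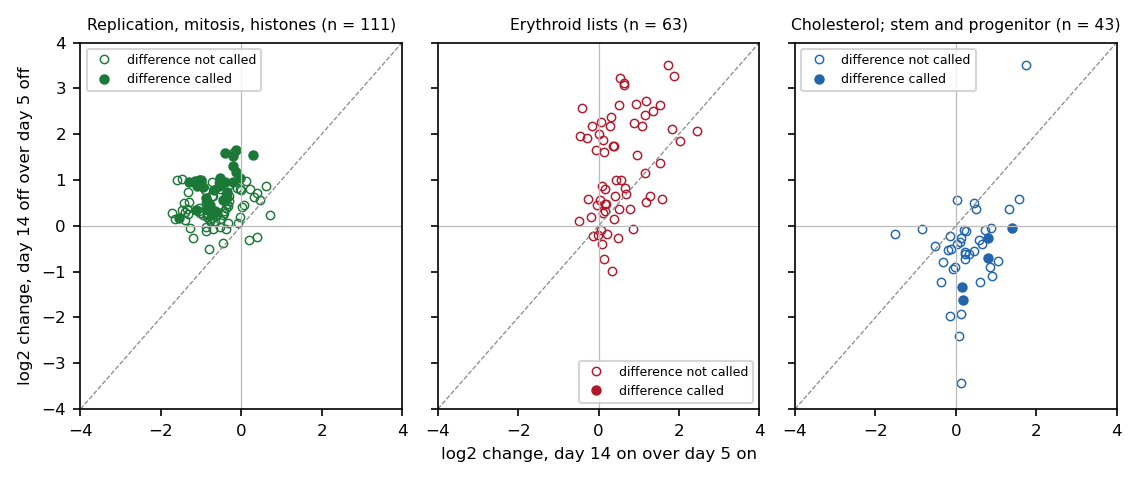
Log2 change between day 5 and day 14 in the off libraries (vertical axis) against that in the on libraries (horizontal axis), 1 point per tested gene. Filled points are genes whose off and on changes differed by edgeR, and the dashed line marks equal changes. Replication, mitosis and histone genes lie mostly above 0 off and below 0 on, erythroid genes lie mostly above the line with no difference called, and cholesterol and progenitor genes lie mostly below it.

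Genes for growth and energy supply followed no single pattern. Ribosome biogenesis and MYC target genes had 13 of 24 called higher and 0 lower (median 0.69). Cad, which starts pyrimidine synthesis, rose by 2.07 ± 0.35, Rrp12, of ribosome maturation, by 1.54 ± 0.25, Odc1, ornithine decarboxylase, from 158 and 212 CPM to 374, 450, 366 and 367 CPM (1.07 ± 0.15), and Gar1, of RNA pseudouridylation, by 0.96 ± 0.17. The count was 2 without day 5 replicate 1, without replicate 2 it was 6 and without day 14 replicate 1 it was 8. Odc1 kept its call throughout, whereas Cad (edgeR adjusted p = 0.0635), Rrp12 (0.0561) and Gar1 (0.0786) lost theirs without day 5 replicate 1. Nuclear genes of the respiratory chain had 9 of 76 called higher and 0 lower, a share of 11.8% beside 10.1% of all tested genes (median 0.11, and 0.04 without day 5 replicate 1 or day 14 replicate 2). Uqcrc1 and Cyc1, subunits of complex III, rose by 1.09 ± 0.17 and 1.03 ± 0.15 and kept their calls without each library. The respiratory count was 2 and 3 without day 5 replicates 1 and 2, and 4 without day 14 replicate 1 or 2. The mitochondrial ribosome had 8 of 64 higher and 1 lower (median 0.13, and 0.05, 0.21 and 0.08 without day 5 replicates 1 and 2 and day 14 replicate 2), none of which held without each library, and none of 13 genes of the mitochondrial genome was called by edgeR. Hk1, the hexokinase that traps glucose, went from 23.6 and 42.4 CPM to 152, 176, 166 and 129 CPM (2.23 ± 0.24), 1 of 3 risers among 19 glycolysis genes (median -0.04, and -0.22 to 0.18 when 1 library was left out), and the only one left without day 5 replicate 1. Without day 14 replicate 3, as with a replicate block, the list had 3 genes higher and 4 lower.

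Genes of the platelet lineage, which shares its precursor with red cells, split. Gp5, a platelet surface glycoprotein, went from 1.86 and 3.895 CPM to 20.2, 27.8, 16.2 and 22.7 CPM (2.89 ± 0.36), and Pf4, a platelet chemokine, from 0.722 and 2.43 CPM to 11.3, 21.6, 10.7 and 9.32 CPM (3.02 ± 0.50). Itga2b, the integrin that marks both early progenitors and platelets, went from 13.1 and 28.4 CPM down to 3.81, 5.78, 5.71 and 3.95 CPM (-2.10 ± 0.32). None of these 3 genes had overlapping groups, and each kept its call without each library. Gp5 also rose between the on libraries, by 2.77 (edgeR adjusted p = 0.0422). Of 11 tested megakaryocyte genes 5 rose and 1 fell, where 10.1% and 6.94% of all tested genes did. The list's median log2 change was 1.08 off and 1.47 on, and the median difference between them was 0.002. Requiring 5 CPM in 2 libraries left 5 tested genes with an off median of 0.16.

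**Figure D4:**
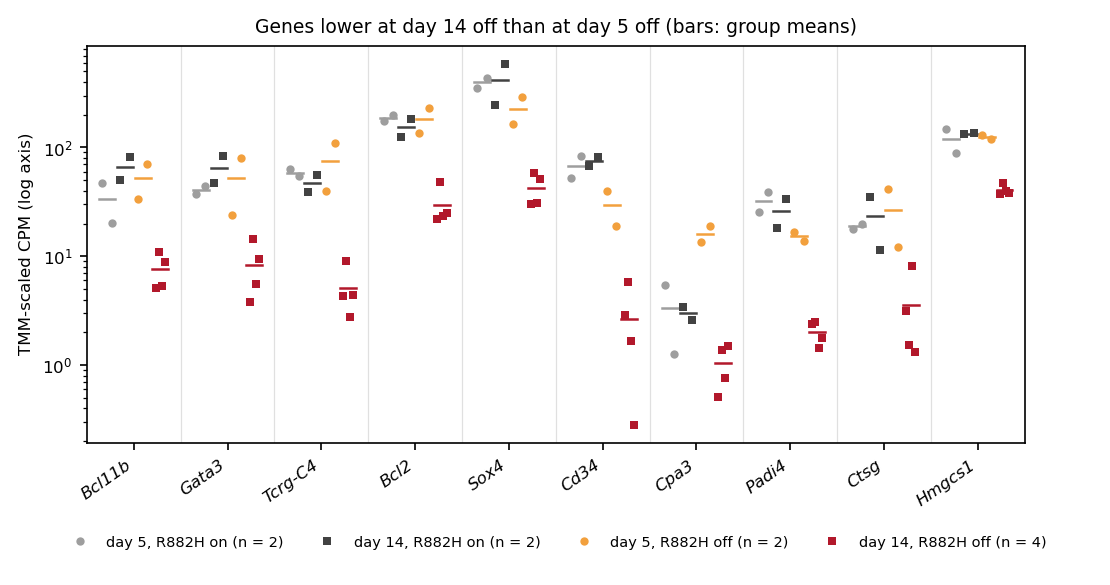
TMM-scaled CPM (log axis) of 10 genes called lower at day 14 off, in every library, with group means as short bars and colours as in the plot of erythroid genes. All 4 day 14 off libraries lie below both day 5 off libraries in each gene. In each gene but Cpa3 they also lie below all 4 on libraries.

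Large falls were seen in genes best known from lymphoid and early progenitor cells. Tcrg-C4 (ENSMUSG00000076757, chromosome 13, 19344558 to 19352756), a constant region of the T cell receptor gamma locus, went from 40.1 and 111 CPM to 4.32, 9.01, 2.75 and 4.42 CPM, a change of -3.87 ± 0.45 (edgeR adjusted p = 0.00137). Bcl11b (ENSMUSG00000048251, chromosome 12, 107910403 to 108003602), a factor that commits cells to the T lineage, went from 33.4 and 71.3 CPM to 5.08, 11.1, 5.30 and 8.85 CPM, a change of -2.79 ± 0.43 (edgeR adjusted p = 0.00347). Gata3, a factor of T cells and some progenitors, went from 23.9 and 80.5 CPM to 3.81, 14.4, 5.58 and 9.41 CPM, a change of -2.65 ± 0.52 (edgeR adjusted p = 0.00923). In all 3 genes the day 14 libraries lay below both day 5 libraries, and day 5 replicate 2 was the higher of these. Ikzf2, an Ikaros family factor, fell from 42.9 and 85.6 CPM to between 5.16 and 12.9 CPM (-2.78 ± 0.41), and Trbc1, a constant region of the T cell receptor beta locus, by 2.60 on the log2 scale. Without day 5 replicate 2, Gata3 stood at -1.52 (edgeR adjusted p = 0.128) and Trbc1 at -1.66 (0.148), and the calls of both were lost. A replicate block also ended the call of Trbc1 (0.121). The off change differed from the on change in Bcl11b (by -3.76), Tcrg-C4 (by -3.56) and Ikzf2 (by -2.83), with edgeR adjusted p = 0.0276, 0.0317 and 0.0463. These 3 differences kept their call in 6, 4 and 1 of the 10 fits that leave out a library.

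In bulk samples fewer cells of a type and less RNA per cell cannot be told apart. The summed level of the 20 listed T and NK cell genes was 254 to 428 CPM at day 5 and 143 to 268 CPM at day 14. Of the 17 tested, 4 were called lower, Trbc1, Trbc2 (-1.94), Tcf7, a T cell factor (-1.86), and Lck, a kinase of the T cell receptor (-1.58), and 2 higher, the NK receptor Klrb1c (2.06) and the interleukin receptor Il7r (1.92). Cd8a, a T cell coreceptor, was at 52.2 to 90.3 CPM over the 6 off libraries, while Cd3e (0.103 to 0.565 CPM), Cd4 (0.0812 to 0.413 CPM) and Zap70 (0 to 0.366 CPM) were near 0. Over all tested genes 6.94% were called lower and 10.1% higher. Trbc2, Lck, Klrb1c and Il7r were named outside the rule, after their values had been seen. The median of the list was -0.30, and -0.05 and -0.09 without day 5 replicate 2 and day 14 replicate 1, and -0.54 without day 14 replicate 2. No call of this list held without each library in turn, and without day 5 replicate 2 Lck stood at -0.89 and Trbc2 at -0.73 (edgeR adjusted p = 0.293 and 0.509). It had 0 calls without day 5 replicate 2, 3 without day 5 replicate 1, 3 without day 14 replicate 1 or 3 and 2 without replicate 4.

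Of 21 tested genes of stem and progenitor cells 6 were called lower and 1, Tal1, higher (median -0.39). Cd34 (ENSMUSG00000016494, chromosome 1, 194938819 to 194961279), a surface protein of blood progenitors, went from 40.01 and 18.9 CPM to 2.88, 5.86, 1.65 and 0.282 CPM, a change of -3.42 ± 0.60 (edgeR adjusted p = 0.00573), whose call was lost without day 5 replicate 1 (0.0594). Sox4, a progenitor factor, went from 164 and 291 CPM to 30.4, 58.6, 31.0 and 51.5 CPM, a change of -2.41 ± 0.38 (edgeR adjusted p = 0.00361), and Angpt1, a growth factor made by stem cells, from 146 and 189 CPM to 47.4, 47.4, 30.8 and 51.0 CPM (-1.92 ± 0.31). Both groups were apart in these genes, and Sox4 and Angpt1 kept their calls without each library. Among those lower were Hoxa9, a homeobox factor of leukaemic progenitors, and Mn1, at -1.22 and -1.97. Both lost their calls without day 5 replicate 1 (edgeR adjusted p = 0.329 and 0.162) or 2 (0.0753 and 0.121) and without day 14 replicate 1 (0.0992 and 0.0716) or 4 (0.0785 and 0.0650), Hoxa9 also without day 14 replicate 2 (0.0550) and Mn1 without replicate 3 (0.0713). Hoxa9 and Mn1 were named outside the rule, after their values had been seen. The list had 2 genes called lower without day 5 replicate 1, with a median of -0.23, beside -0.68 without replicate 2. Bcl2, the inhibitor of apoptosis, went from 135 and 232 CPM to 21.8, 48.6, 23.6 and 25.0 CPM, a change of -2.62 ± 0.32 (edgeR adjusted p = 0.00159) that kept its call without each library.

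Myeloid genes moved in both directions. Beside the lists that follow, 10.1% of all tested genes were called higher and 6.94% lower. Of 11 tested granulocyte progenitor genes 5 were called lower and 0 higher (median -1.63, and -0.73 without day 5 replicate 1). Ctsg, a protease of primary granules, went from 41.1 and 12.3 CPM to 3.13, 1.54, 8.19 and 1.32 CPM (-2.87 ± 0.69), and Gfi1, a factor of granulocyte precursors, from 12.2 and 6.17 CPM to 2.29, 4.91, 2.48 and 1.98 CPM (-1.63 ± 0.45). The groups did not overlap, and day 5 replicate 1 was the higher of its pair in both genes. Without it no gene of this list was called by edgeR, with Ctsg at -1.77 (adjusted p = 0.252) and Gfi1 at -1.08 (0.325), and no call was left without day 14 replicate 1 (0.0541 and 0.0825). Gfi1 was also lost without day 14 replicate 3 (0.0729) and 4 (0.0736) and with a replicate block (0.0839), and the list had 3 and 2 calls without day 14 replicates 2 and 4. Padi4, an enzyme of maturing neutrophils, went from 16.8 and 14.0 CPM to 2.37, 2.49, 1.45 and 1.79 CPM (-2.92 ± 0.30) and kept its call throughout. It was the 1 faller among 17 neutrophil genes, of which 6 rose (median 1.06), Mmp9, a secreted protease, by 1.30 ± 0.29. None of these 6 rises was called without day 5 replicate 1 or without replicate 2, and the edgeR adjusted p of Mmp9 was then 0.0940 and 0.0941. The neutrophil list had 3, 2 and 3 calls without day 14 replicates 1, 2 and 4.

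Cpa3, a mast cell protease, went from 13.4 and 18.8 CPM to 0.508, 1.39, 0.757 and 1.51 CPM (-3.95 ± 0.49, edgeR adjusted p = 0.00158), and 3 of 5 tested mast cell and basophil genes were called lower, 1 of them without day 5 replicate 1. The summed level of the 12 listed genes was 51.2 to 53.9 CPM at day 5 off and 13.1 to 16.6 CPM at day 14 off. C1qa, a complement subunit of macrophages, was at 0.103 and 0.243 CPM at day 5, at or below the limit of a count of 0, and at 1.44, 5.34, 2.41 and 4.52 CPM at day 14. Csf1r, the receptor of the macrophage growth factor, rose by 0.90 ± 0.16, and Fcgr3, an Fc receptor, went from 14.4 and 12.4 CPM to between 3.64 and 5.23 CPM (-1.69 ± 0.25). The calls of C1qa (edgeR adjusted p = 0.0711) and Csf1r (0.0651) were lost without day 5 replicate 1. Of 19 tested monocyte and macrophage genes 3 rose and 2 fell, where 10.1% and 6.94% of all tested genes did, and the list's median was -0.54. Most of these calls were lost without day 5 replicate 1. Their summed level overlapped between the days (1614 to 2540 CPM at day 5 and 1162 to 2286 CPM at day 14). Genes of dendritic cells and MHC class II had 0 of 14 higher and 1 lower, a call that did not hold without each library, with a summed level of 4876 to 6700 CPM at day 5 and 3441 to 7817 CPM at day 14. The part of these other cell types in the results was not tested.

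Of 22 tested genes of cholesterol synthesis 7 were called lower and 0 higher (median -0.58). Hmgcs1 (ENSMUSG00000093930, chromosome 13, 119690379 to 119708260), an early enzyme of the pathway, went from 130 and 121 CPM to 37.3, 47.3, 39.4 and 38.5 CPM, a change of -1.63 ± 0.18 (edgeR adjusted p = 0.00105). Cyp51, which demethylates lanosterol, went from 79.7 and 70.4 CPM to 26.9, 33.4, 33.7 and 25.3 CPM, a change of -1.33 ± 0.22 (edgeR adjusted p = 0.00382). The day 5 libraries were close in both genes and all day 14 libraries lay below them. In the on libraries Hmgcs1 stood at 148, 89.4, 132 and 136 CPM (day 5 first), and its off change differed from its on change by -1.80 (edgeR adjusted p = 0.0125) without any loss of the call when 1 of the 10 libraries was left out. Fdps, a maker of isoprenoid chains, fell by 0.95 on the log2 scale. The list had 2 calls without day 5 replicate 1 or 2. Hmgcs1 and Cyp51 were called without each library, while Fdps was lost without day 5 replicates 1 and 2 (edgeR adjusted p = 0.0613 and 0.0585).

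Targets of RAS signalling, the pathway of NRAS, had 4 of 16 called lower and 1 higher (median -0.43). Ccnd1, cyclin D1, went from 357 and 222 CPM to 103, 117, 143 and 144 CPM (-1.19 ± 0.19) and Etv4, a target factor, fell by 2.11 on the log2 scale. Without day 5 replicate 1 the calls of Ccnd1 (edgeR adjusted p = 0.0501) and Etv4 (0.103) were lost and Egr1 alone was left. Egr1, an immediate early factor, went from 12.2 and 12.9 CPM to 74.4, 76.8, 142 and 53.7 CPM off and from 11.9 and 23.2 CPM to 121 and 87.3 CPM on. The 2 changes were 2.79 ± 0.43 and 2.55 (edgeR adjusted p = 0.00340 and 0.0327), and the difference between them was 0.24 (edgeR adjusted p = 0.843). Etv4 was also lost without day 5 replicate 2 (0.120) and day 14 replicates 1 (0.0606), 3 (0.0530) and 4 (0.0548), and the list had 3, 3, 3 and 2 calls without these libraries. Of 19 immediate early genes, 4 rose and 1 fell off, against 5 that rose and 0 that fell on. Their off calls numbered 2 without day 5 replicate 1 or day 14 replicate 1, and 3 without day 5 replicate 2. Genes of MHC class I presentation had 3 of 16 lower and 0 higher (median -0.30, and -0.12 and -0.19 without day 5 replicate 1 and day 14 replicate 3), of which Erap1, a peptide trimmer, at -0.87 ± 0.12, kept its call without each library while the rest did not. It was the 1 call left without day 5 replicate 1 or 2. p53 targets had 1 of 12 higher and 2 lower, Sesn1 at -1.21 ± 0.20 and Trp53inp1 at -1.39 ± 0.23. Beside these lists, 10.1% of all tested genes were called higher and 6.94% lower off.

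The gene of the regulated vector itself, Dnmt3a, was at 65.6 and 50.2 CPM at day 5 and at 32.3, 31.9, 35.6 and 39.2 CPM at day 14, without overlap, a change of -0.73 ± 0.16 (edgeR adjusted p = 0.0120). The call was lost without day 5 replicate 1 (0.169). Tags near the 3′ end of the vector's message may lie outside the mouse gene, and Dnmt3a is therefore no check of the labels. Idh2 and Nras did not pass the test (-0.02 ± 0.25 and -0.25 ± 0.12, edgeR adjusted p = 0.961 and 0.179). Kit, the gene of the sort marker, was present in all libraries, at 43.3 and 40.3 CPM at day 5 and at 36.1, 34.6, 30.9 and 36.4 CPM at day 14 (-0.28 ± 0.13, edgeR adjusted p = 0.154). It rose between the on libraries, from 51.3 and 56.2 to 88.9 and 98.1 CPM, and the off and on changes of Kit differed by -1.07 (edgeR adjusted p = 0.0220), a call kept in 6 of the 10 fits that leave out a library. Itgam, which encodes CD11b, by whose absence the cells were sorted, was at 14.6 and 3.17 CPM at day 5 and at 2.07 to 3.73 CPM at day 14 (-1.49 ± 0.58, edgeR adjusted p = 0.108), a change of -0.03 without day 5 replicate 1.

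The other large changes were in genes of varied function. Myh10, a nonmuscle myosin, rose from 2.27 and 6.57 CPM to 67.3, 70.4, 49.6 and 59.7 CPM (3.77 ± 0.39, edgeR adjusted p = 0.00105). Nfia, a factor known to favour red cells over granulocytes, went from 7.32 and 10.1 CPM to 83.7, 81.4, 72.5 and 78.5 CPM (3.17 ± 0.34). Ces2g, a carboxylesterase, rose by 3.13 ± 0.49, the amino acid transporter Slc38a5 by 2.89 ± 0.55, Col18a1, a collagen, by 2.87 ± 0.42, and the centrosome gene Ninl by 2.85 ± 0.36. These calls held without each library, and Slc38a5 stood at 4.54 without day 5 replicate 2. Chst1, a sulfotransferase, rose by 3.67 ± 0.80 with 0.309 and 3.98 CPM at day 5 and 13.9 to 48.8 CPM at day 14, a change of 6.49 without day 5 replicate 2 and a call lost without replicate 1 (edgeR adjusted p = 0.0804).

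Among the fallers outside the lists, Gria3, a glutamate receptor subunit, went from 47.8 and 43.1 CPM to 4.15, 6.37, 3.65 and 2.16 CPM (-3.46 ± 0.36). Fut7, which completes selectin ligands on leukocytes, went from 34.4 and 51.0 CPM to 1.78, 7.69, 2.96 and 4.33 CPM (-3.34 ± 0.41), and Ccl9, a chemokine, from 38.7 and 16.6 CPM to 5.25, 4.32, 5.44 and 3.01 CPM (-2.60 ± 0.31). Adgrg3, an adhesion receptor, and Gem, a small GTPase, changed by -3.00 ± 0.43 and -2.54 ± 0.41. In these 5 genes no call was lost when a library was left out. Tmem121 changed by -3.50 ± 0.68, a call lost without day 5 replicate 2 (edgeR adjusted p = 0.0691).

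Whether a change between the days was particular to the off libraries was tested as the difference between the off and the on change. The off and the on comparison share no library. Of 15916 genes 487 (3.06%) were called, 262 (1.65%) with the higher and 225 (1.41%) with the lower change off. Among the genes with the smallest p was Snora73b, a small nucleolar RNA, at 11.1 and 13.8 CPM at day 5 off, 48.9, 75.2, 62.3 and 60.3 CPM at day 14 off, 20.5 and 31.6 CPM at day 5 on and 10.3 and 11.1 CPM at day 14 on. Its difference was 3.59 (edgeR adjusted p = 0.00106). Ahnak (ENSMUSG00000069833, chromosome 19, 8989284 to 9076914), a very large scaffold protein, went from 287 and 157 CPM to 46.4, 70.5, 60.7 and 59.2 CPM off and from 368 and 298 to 1078 and 628 CPM on, a difference of -3.26 (edgeR adjusted p = 0.00617). Tnfrsf13b, a B cell receptor of the TNF receptor family, and Cd244a, a receptor of NK cells and progenitors, differed by -2.30 and -2.15. These 4 differences, and that of Ccl9 (-3.68), were called without each of the 10 libraries in turn.

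None of the 63 tested genes of the 3 erythroid lists was called in that difference by edgeR. Tal1 changed by 3.52 off and 1.74 on (difference 1.78, edgeR adjusted p = 0.198), Gata1 by 2.38 and 0.31 (2.06, 0.177) and Car1 by 2.57 and -0.41 (2.99, 0.0603). In the on libraries Car1 was at 23.9 and 8.48 CPM at day 5 and at 14.1 and 9.94 CPM at day 14, below all off libraries. The on comparison called 0 higher and 0 lower among the surface and the late erythroid genes and 2 higher among the transcription factors, Zbtb7a (0.69, edgeR adjusted p = 0.0358) and Gata2 (1.58, 0.0466). A missed threshold does not show that erythroid genes changed alike off and on. The on groups hold 2 libraries each, and leaving out 1 of them or of the off libraries moved the count of differences to between 106 and 965.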

How the data were processed

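The authors deposited 1 table of raw counts per gene from QuantSeq 3′ libraries of 10 samples, per the labels' protocols, for 52636 mouse genes. Per the submitters' processing notes the tools were HISAT2 2.0.4 and featureCounts of Subread 2.0.0 on build mm10, beside cutadapt 1.14, bcl2fastq 2.17.1.14, limma 3.48.3 and edgeR 3.34.0. A 3′ tag count reads the end of a message, so changes elsewhere in it are not seen. Groups came from the sample labels. Total counts of the 10 libraries were 9292644 to 14340624.

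Here a robust quasi-likelihood model with 4 group means was fitted over the 10 libraries with edgeR 4.0.16 in R 4.3.3 (TMM scaling, default low-count filter, 15916 genes, Benjamini-Hochberg adjustment over all of them, calls at 0.05). The SE is the log2 change over the square root of F. Contrasts were day 14 against day 5 off, the same on, and their difference. On counts simulated for the off comparison with 15510 genes, 51 of 100 genes changed by 1 on the log2 scale and 96 of 100 changed by 2 were recovered, and 9 unchanged genes were called. The changed genes were drawn only from those with a mean above 5 CPM, so recovery at lower levels was not tested. Simulated libraries of a group shared the same mean for each gene, unlike the 2 day 5 off libraries. Alternatives used DESeq2 1.42.0, limma 3.58.1 voom, other scalings and filters, a replicate block, and each library left out.

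Genes were named by rule: the 12 genes that rose and the 12 that fell most among those called whose mean log2 CPM reached 3 and whose groups did not overlap, up to 4 genes of smallest p per list with at least 3 calls, the heme synthesis, vector and sort genes, and 4 per direction in the other comparisons. Further genes were named as examples after their values had been seen. The gene lists and the members were chosen with earlier results of these data known. Some genes counted in the lists are not reported here. Promoter sequences are from RefSeq, GRCm38.p6.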

Additional observations from a re-analysis of the deposited data

Results flagged for a closer look

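The 4 day 14 off libraries were examined for 202 items, each a gene picked by the rule or a list of at least 3 tested genes. For 16 items 1 library lay far from the other 3, and chance alone gives about 5 percent. All items share the same 4 libraries and lists hold many of the genes, so the items are not independent. Replicate 2 was the highest in Gem (14.863 CPM), Bcl2 (48.616 CPM), Slc11a2 (67.213 CPM), Pf4 (21.599 CPM), Glrx5 (347.27 CPM), Odc1 (450.06 CPM) and Tcf7 (34.339 CPM). Replicate 3 was the highest in Psmb8 (268.63 CPM). Replicate 3 was the lowest in Ninl (17.004 CPM) and Epb41 (97.138 CPM). Replicate 4 was the highest in Tal1 (50.26 CPM). Replicate 4 was the lowest in Pfkm (8.2826 CPM) and Atp5d (154.73 CPM). By mean log2 CPM over a list, replicate 3 was the highest in the glycolysis genes (5.335), replicate 3 was the highest in the BCL2 family (4.8217) and replicate 1 was the highest in the MHC class I presentation genes (6.6529).

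Among the genes picked by the rule, 53 changed differently between the days with R882H off than with it on. The edgeR test was of the difference (log2 change off minus log2 change on), by which 3.06% of all tested genes were called. Some genes were picked because of a small p in this same test or a large off change. The count of 53 is therefore no measure of how common such differences are. The off change was the higher in Mt2 (3.8675), Snora73b (3.5922), Ddx60 (3.4522), Hist1h2aj (2.8511), Steap3 (2.558), Alas2 (2.5083), Hist1h2ab (2.2532), Nfia (2.1999), Hist1h2ag (2.1303), Hist1h2ae (2.115), Hist1h2ao (2.0486), Hist1h2ai (2.0072), Ccne1 (2.0002), Iba57 (1.8607), Hk1 (1.8457), Fech (1.8254), Plk1 (1.7904), Cdc20 (1.7297), Rrp12 (1.7259), Lyrm4 (1.5968), Cdc6 (1.562), Mcm2 (1.5135), Slc11a2 (1.4559), Slc16a1 (1.4318), Urod (1.3532), Pold1 (1.2469), Odc1 (1.2256), Bub1b (1.0736) and Cyc1 (0.9473). It was the lower in Cpa3 (-3.8574), Bcl11b (-3.762), Ccl9 (-3.676), Tcrg-C4 (-3.5639), Ahnak (-3.2638), Fut7 (-3.241), Gria3 (-3.2044), Adgrg3 (-3.1173), Ikzf2 (-2.8338), Padi4 (-2.61), Itga2b (-2.5295), Bcl2 (-2.3428), Tnfrsf13b (-2.3019), Cd244a (-2.1478), Fcgr3 (-1.9025), Hmgcs1 (-1.8029), Trp53inp1 (-1.802), Sesn1 (-1.6643), Cyp51 (-1.4809), Ccnd1 (-1.4029), Foxj2 (-1.2144), Kit (-1.075), Dnmt3a (-1.0502) and Samsn1 (-0.77898). The call held without each of the 10 libraries in turn for Hist1h2ab, Hist1h2aj, Snora73b, Ahnak, Cd244a, Tnfrsf13b, Ccl9, Hmgcs1, Ccne1, Cdc6, Steap3, Hist1h2ai, Hist1h2ae, Hist1h2ag and Hist1h2ao, and was lost for the others without at least 1 library.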

How the results depend on the processing

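The off comparison called 2706 genes, and its count stayed within 1.5 times of that under other scalings, filters, DESeq2, limma voom and the fit of the compared groups alone. Requiring a 1.5-fold change (glmTreat) left 571, of which 330 were higher and 241 lower. Leaving out 1 library gave 601 to 2131 calls, 282 to 1222 of them higher and 319 to 909 lower, with the lowest counts without day 5 replicate 1. The on comparison (370 calls) and the difference between off and on (487) depended more on the setting. With no low-count filter they had 1275 and 1957 calls, with DESeq2 1136 and 1327, and with a 1.5-fold minimum 0 and 76. The on comparison also had 0 calls when its 2 groups were fitted alone, where 1633 genes had an unadjusted p below 0.05 (edgeR), as had 923 with the 1.5-fold minimum. Leaving out 1 library gave 0 to 680 calls on, the 0 being without day 14 on replicate 1 (2200 genes at an unadjusted p below 0.05), and 106 to 965 for the difference. The causes were not tested. No described result changed direction past its threshold under any of these.

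With the replicate number as a block the counts were 3032 off, 1014 on and 1521 for the difference. Replicate numbers 3 and 4 occur only at day 14 off, so the block fits those libraries exactly. The blocked off comparison therefore rests on replicates 1 and 2 of each day, and a call lost under it may reflect the smaller set of libraries. Same-numbered off libraries deviated from their group means with r = 0.0915 and 0.300, and nothing in the labels says that the numbers pair mice. At this depth 3 counts correspond to 0.209 to 0.323 CPM, and lower levels were not detectable.

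Counts of calls per list (higher and lower) moved by over 1.5 times under some settings. Fitting the off groups alone gave 14 and 0 for mitosis, 11 and 0 for heme transport, 13 and 2 each for the respiratory chain and the mitochondrial ribosome, 4 and 2 for glycolysis, and 5 lower each for MHC class I and mast cell genes. Without the low-count filter they were 8 and 3 for iron, 4 and 2 for copper (median -0.03), 9 and 1 for immediate early genes, 11 and 2 for neutrophil, 0 and 9 for granulocyte progenitor (median -0.90), 6 and 6 for monocyte, 2 and 6 for RAS, and 0 and 5 for mast cell genes. Requiring 5 CPM in 2 libraries left 2 and 1 megakaryocyte, 3 and 1 neutrophil and 0 and 1 mast cell genes. DESeq2 gave 9 and 1 immediate early and 13 and 1 mitochondrial ribosome genes, voom 2 and 1 neutrophil genes, and the replicate block 8 and 0 immediate early and 2 and 1 T and NK cell genes. Under the 1.5-fold minimum 5 erythroid factors, 9 early surface, 5 late erythroid, 3 heme synthesis, 2 heme transport, 6 replication, 3 mitosis, 2 histone and 3 ribosome biogenesis genes were higher, and 2 cholesterol and 3 progenitor genes were lower (edgeR).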
